A study of Mus musculus with 16 samples.

Results

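The RNA of 39 genes was followed through exit from naive pluripotency in mouse embryonic stem (ES) cells. The genes encode the vacuolar proton pump (V-ATPase), the Ragulator and Rag proteins, mTORC1 with its TSC regulators and the lysosomal transporter Slc38a9, and folliculin with the MiT/TFE transcription factors. They were taken by symbol from the table of 27179 genes, and all 39 were found and passed the filter on low counts. The study's title concerns strategies of amino acid intake in pluripotent cell states. ES cells from serum/LIF culture were adapted over several passages to one of 2 naive media. Serum-free 2i/LIF medium and serum/LIF+2i medium, which holds fetal bovine serum, both contained leukaemia inhibitory factor (LIF) and 2i, which is the GSK3 inhibitor CHIR99021 with the MEK inhibitor PD0325901. Exit was started by a wash and a change to serum-free medium lacking 2i and LIF for 12, 24 or 40 h, and naive cells at 0 h were the reference. Libraries and cells that started in 2i/LIF are called 2iLIF below, and those that started in serum/LIF+2i are called 2iSL, as in the sample titles. For 2iSL the exit medium combined Neurobasal with a DMEM free of glutamine, to which glutamine was added back, whereas 2iLIF cells stayed in their own base medium, so the medium of origin and the base of the exit medium cannot be told apart. The treatment protocol names 24 and 40 h for 2iSL, and its 12 h libraries follow their titles. The strain, the name of the ES cell line and any allele it carries are not given in the sources used here. Each of the 8 groups had 2 libraries. Nothing in the labels says that they came from separate cultures, so p-values measure the spread between these libraries, which may be technical.

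The V-ATPase acidifies lysosomes. Its cytosolic V1 sector hydrolyses ATP and its membrane V0 sector carries the protons. On the lysosome surface it binds Ragulator, which anchors heterodimers of RagA or RagB with RagC or RagD. When amino acids are plentiful the Rag proteins bring mTORC1 to the lysosome, where Rheb activates it and the TSC complex holds Rheb back. Folliculin, with Fnip1 or Fnip2, is a GTPase-activating protein for RagC and RagD, and it lets mTORC1 keep TFEB, TFE3 and MITF phosphorylated and out of the nucleus. In mouse ES cells, folliculin is known for keeping Tfe3 out of the nucleus so that the naive programme, with its factor Esrrb, can be shut down. RNA counts measure neither phosphorylation nor where a protein is.

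Libraries held between 5931381 and 11142744 counted reads. Replicates correlated at 0.991 to 0.995 across genes (Pearson's r of log2 CPM, genes not being independent). The 39 genes drew between 8 reads (Mitf) and 2687 reads (Tfe3) in a library. Levels below are CPM, the reads of a gene relative to all counted reads of its library on the usual scale, adjusted by the trimmed mean of M values (TMM), and values joined by "and" after a time are the 2 libraries. The markers of pluripotent cells (Pou5f1, Sox2, Nanog, Zfp42, Esrrb and Utf1) were all detected. Their summed level went from 2894 and 2975 CPM at 0 h to 1308 and 1272 CPM at 40 h in 2iLIF, and from 3330 and 3271 CPM to 1285 and 1237 CPM in 2iSL. The sum hides opposite courses, since in 2iLIF Nanog went from 650.2 and 679.7 CPM to 29.1 and 26.6 CPM, Pou5f1 from 640.9 and 640.9 CPM to 635 and 635 CPM, and Utf1 from 20.5 and 19.4 CPM to 415 and 385 CPM. Summed markers of primitive endoderm stayed at or below 16.03 CPM and those of fibroblasts at or below 13.7 CPM in every library. Trophoblast markers went from 88.4 to 93.0 CPM in the 4 libraries at 0 h to 9.89 to 16.5 CPM in the 4 libraries at 40 h, and mesoderm markers from 14.8 to 32.4 CPM to 1.49 to 2.42 CPM. At 0 h most of these sums came from single genes. Tfap2c gave 61.0 and 64.6 CPM in 2iLIF and 56.4 and 54.3 CPM in 2iSL, and T gave 30.0 and 26.0, then 18.4 and 13.8 CPM. The trophoblast marker Eomes had means of 3.95, 6.15 and 2.10 CPM at 0, 12 and 40 h in 2iLIF. In 2iSL its means were 6.61, 11.1 and 3.19 CPM. Neural markers rose from 0 to 40 h, from 47.0 and 47.4 CPM to 86.3 and 94.2 CPM in 2iLIF. In 2iSL they rose from 31.6 and 28.1 CPM to 122 and 123 CPM. The part of these marker shifts in the results below was not tested. In bulk RNA, fewer cells of a type and less RNA per cell cannot be told apart.

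The question put to the 39 genes is how their RNA changes as naive cells exit, and whether the starting medium alters that change. A gene was called changed at an adjusted p under 0.05 in edgeR's quasi-likelihood test, adjusted over 14288 genes. More of the 39 fell than rose at every time. In 2iLIF, 28 of 39 were called at 12 h, where 44.7% of all genes tested were called. Of these, 5 were higher and 23 lower, against 21% and 23.7% of all genes. At 24 h it was 26 genes (background 58.8%), 3 higher and 23 lower (29.2% and 29.6% of all genes). At 40 h it was 25 genes (background 68.8%), 4 higher and 21 lower (34.1% and 34.7%). In 2iSL the counts were 26 at 12 h (51.2%), with 8 higher (25.3%) and 18 lower (25.9%). At 24 h 28 were called (64.4%), 8 higher (32.4%) and 20 lower (32%). At 40 h 29 were called (70.5%), 11 higher (35.3%) and 18 lower (35.3%). The number called at 40 h was thus near the background in either medium, and the split towards lower values was not. The counts at 40 h in 2iSL depended on the scaling. Library size alone gave 15 higher and 15 lower, where 5635 of the 14288 genes were called higher and 4386 lower. The 3 exit comparisons of a medium share its 0 h libraries.

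**Figure D1:**
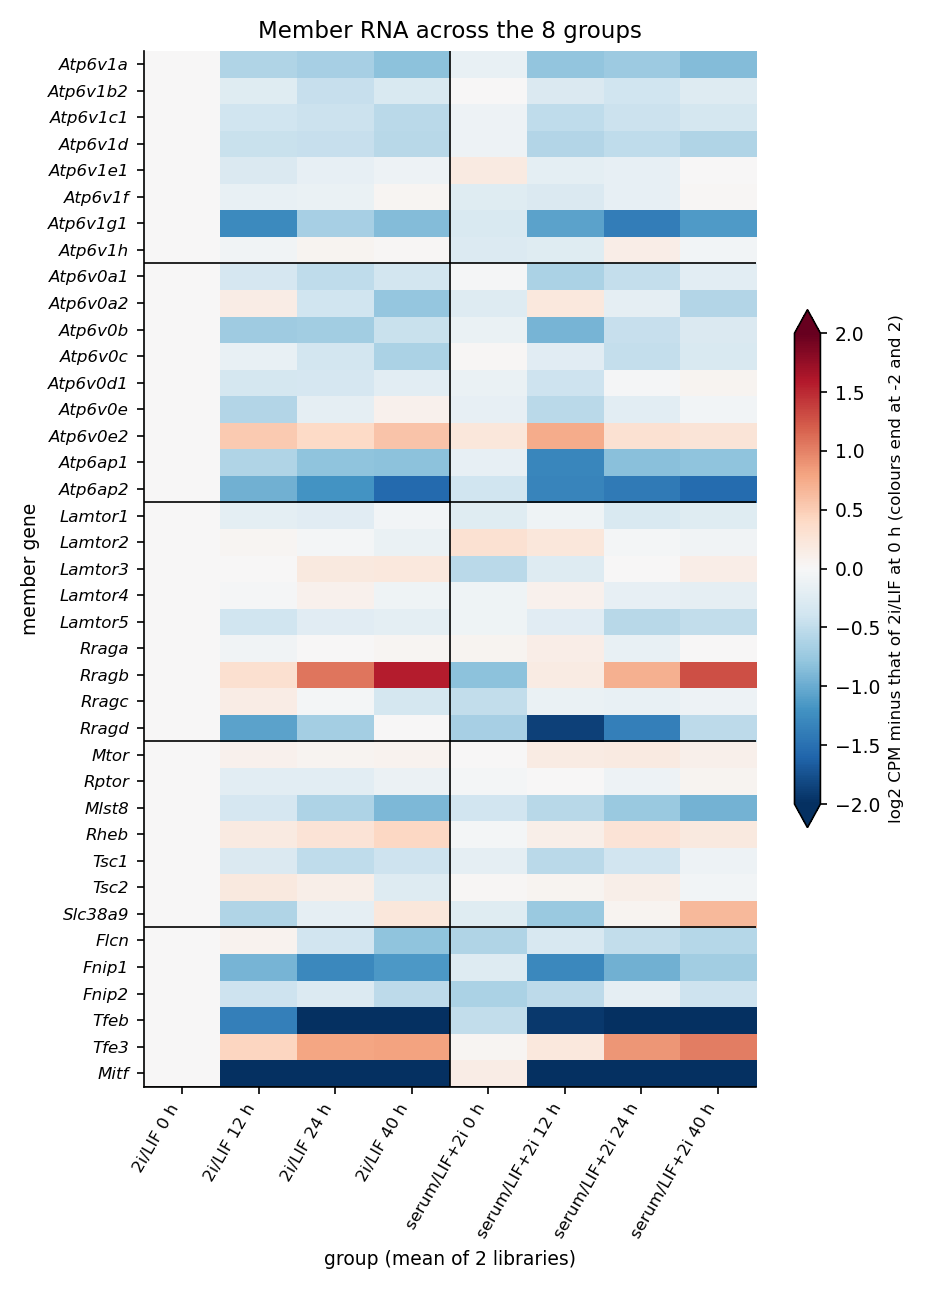
Mean level of each of the 39 genes in the 8 groups, as log2 CPM minus the value of 2iLIF at 0 h (columns are groups of 2 libraries, rows are genes grouped by complex, colours end at -2 and 2). Mitf and Tfeb turn dark blue from 12 to 24 h on in both media, Rragb turns red, and Rragd is blue at 12 h and pale again at 40 h in 2iLIF.

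The effect sizes were mostly modest. At 40 h the median log2 change of the 39 genes was -0.26 in 2iLIF and -0.07 in 2iSL, against 0.005 and -0.003 for all genes. The median size of change regardless of sign was 0.42 and 0.25, below the 0.53 and 0.50 of all genes. Of the 39, 5 were called with a change of more than 2-fold at 40 h in at least 1 medium: Mitf, Tfeb, Rragb, Atp6ap2 and Fnip1. Both exit comparisons at 40 h called 21 genes. Of these, 15 were lower in both media, 3 were higher in both (Rheb, Rragb and Tfe3), and 3 went opposite ways (Atp6v0d1, Fnip2 and Rragc). The 2-fold and joint counts were not made for all genes, of which 68.8% were called in 2iLIF and 70.5% in 2iSL.

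**Figure D2:**
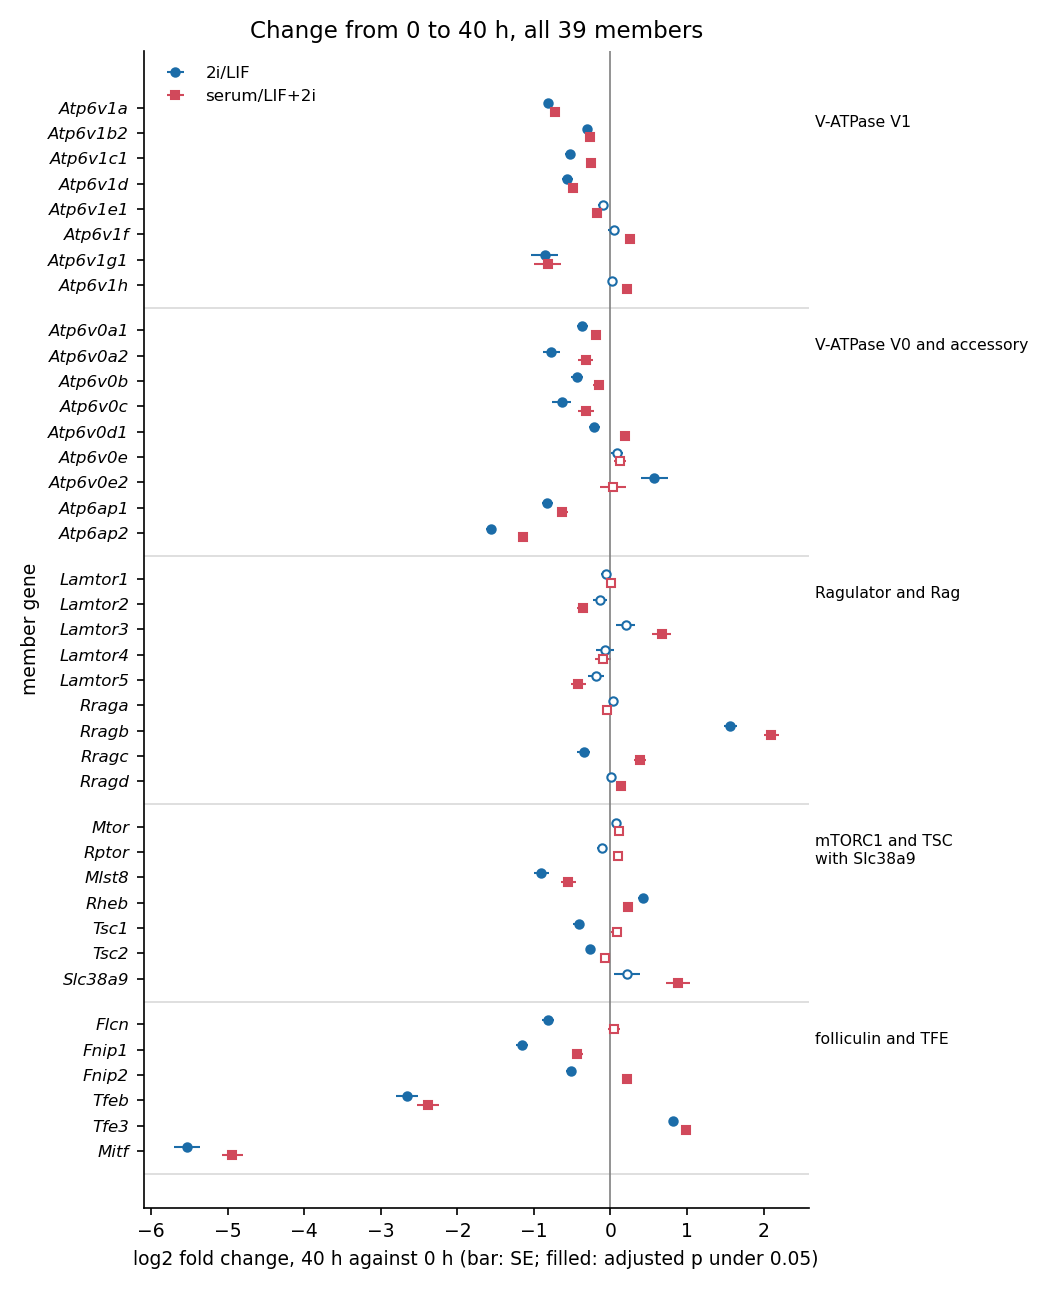
Log2 fold change from 0 to 40 h of all 39 genes in 2iLIF (circles) and 2iSL (squares), with standard errors, filled where the adjusted p was under 0.05. Mitf lies near -5 in both media, Rragb lies farthest to the right, and most V-ATPase genes lie left of 0.

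V-ATPase RNA fell. Of the 17 V-ATPase genes, 12 were lower and 1 was higher at 40 h in 2iLIF, with a median log2 change of -0.44, and 12 were lower and 3 higher in 2iSL, with a median of -0.25. Of all genes, 34.7% were lower and 34.1% higher in 2iLIF, and 35.3% were lower and 35.3% higher in 2iSL. The drop was in place at 12 h, when 12 were lower in each medium (23.7% and 25.9% of all genes) and the medians were -0.35 and -0.37. At 24 h 13 and 11 were lower (29.6% and 32% of all genes). Scaled by library size alone, 11 and 9 of the 17 were called lower at 40 h, as were 4483 and 4386 of the 14288 genes. DESeq2 called 11 and 8 of the 17 lower, and 4260 and 4132 of the 21343 genes in its fit.

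In the V1 sector, 5 of 8 genes were lower at 40 h in 2iLIF and 6 of 8 in 2iSL. Atp6v1a, the catalytic A subunit, was the clearest. Its level at 0, 12, 24 and 40 h in 2iLIF was 383 and 357, 253 and 235, 226 and 243, then 209 and 210.5 CPM. In 2iSL it was 338 and 332, 215 and 214, 219.5 and 227, then 210.5 and 194 CPM. All 12 libraries after release lay below all 4 at 0 h, with log2 changes of -0.82 ± 0.04 (SE, adjusted p = 3e-35) and -0.72 ± 0.04 (adjusted p = 3.6e-32) at 40 h. Atp6v1d, a subunit of the central rotor, went from 101 and 97.1 CPM to 64.1 and 70.1 CPM in 2iLIF and from 90.4 and 93.9 CPM to 66.5 and 64.5 CPM in 2iSL, changes of -0.56 ± 0.07 and -0.49 ± 0.07. Atp6v1c1, a stalk subunit involved in joining V1 to V0, fell by 0.53 ± 0.06 and 0.25 ± 0.06 on the log2 scale. Atp6v1b2, the B subunit that forms the catalytic ring with A, fell by 0.31 ± 0.05 and 0.27 ± 0.05. Atp6v1g1, a peripheral stalk subunit, showed -0.86 ± 0.18 and -0.82 ± 0.18, from a level of 15.9 and 14.7 CPM in 2iLIF and 13.1 and 11.6 CPM in 2iSL at 0 h. Its value is uncertain because processed pseudogenes at 95.8 to 99.4% identity match 25.3 to 31.5% of its transcript.

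The V1 genes did not all fall. Atp6v1h, the regulatory H subunit, was called higher in 2iSL only, from 104 and 98.3 CPM to 115 and 121 CPM (0.22 ± 0.06), while in 2iLIF all libraries lay between 114 and 128 CPM and the change was 0.02 ± 0.06. The difference between the media had an adjusted p of 0.052. Atp6v1f gave 0.25 ± 0.07 in 2iSL and 0.04 ± 0.07 in 2iLIF, with a pseudogene at 98.5% identity over 25.1% of its transcript. Atp6v1e1 was -0.18 ± 0.05 in 2iSL and -0.10 ± 0.06 (adjusted p = 0.13) in 2iLIF. Without replicate 2 of 0 h or replicate 1 of 40 h in 2iSL, the Atp6v1e1 value was -0.13 or -0.11 and not called.

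Among V0 and accessory genes, the prorenin receptor Atp6ap2, an accessory subunit needed for pump assembly, fell most at 40 h. It read 174 and 185 CPM at 0 h in 2iLIF, then 91.7 and 92.9, 74.1 and 82.4, and 59.9 and 62.2 CPM. In 2iSL it read 138 and 136 CPM, then 69.9 and 73.6, 70.2 and 65.3, and 65.8 and 57.6 CPM. The fall was stepwise in 2iLIF and nearly complete by 12 h in 2iSL, with log2 changes of -1.56 ± 0.06 and -1.15 ± 0.06 at 40 h. Atp6ap1, the other accessory subunit, changed by -0.83 ± 0.07 and -0.63 ± 0.07. At 12 h in 2iSL its log2 change was -1.14 and that of Atp6ap2 -0.93. Atp6ap1 then stood at 42.2 and 46.0 CPM, below its 62.9 and 63.0 CPM at 40 h. An unprocessed pseudogene, Gm36448, matches 18.8% of the Atp6ap2 transcript at 98.4% identity.

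The proton-carrying ring genes fell too. Atp6v0c, the main c subunit of the ring, changed by -0.64 ± 0.12 in 2iLIF and -0.32 ± 0.11 in 2iSL, with 2 pseudogenes each matching 39.3% of its transcript. Atp6v0b, the related ring subunit, read 84.8 and 78.5, 49.1 and 50.5, 48.5 and 51.97, then 60.7 and 59.8 CPM in 2iLIF, where the 12 and 24 h libraries overlapped. In 2iSL it read 69.3 and 79.0, 43.4 and 41.9, 54.3 and 64.1, then 65.4 and 67.9 CPM. An antisense gene overlaps 11.8% of its exons. Its 40 h change was -0.44 ± 0.08 in 2iLIF. In 2iSL it was -0.16 ± 0.07, and that call was lost without replicate 2 of 0 h (-0.06), replicate 1 of 40 h (-0.12) or replicate 2 of 40 h (-0.18). Atp6v0d1, which couples the ring to the V1 rotor, went opposite ways, at -0.21 ± 0.07 in 2iLIF and 0.18 ± 0.06 in 2iSL. Both calls were weak: without replicate 1 of 0 h or replicate 2 of 40 h the 2iLIF value was -0.17 or -0.15, and without replicate 2 of 0 h or replicate 2 of 40 h the 2iSL value was 0.13 or 0.16, none of them called.

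Paralogous V0 subunits followed different courses. The a subunits help place the pump in the cell. Atp6v0a2, an a subunit known from the Golgi and endosomes, read 40.5 and 37.2, 43.4 and 42.9, 30.0 and 29.0, then 21.9 and 23.5 CPM in 2iLIF. In 2iSL it read 31.6 and 33.3, 46.0 and 43.96, 31.4 and 36.9, then 25.8 and 26.1 CPM. It thus stood highest at 12 h in 2iSL (0.47 ± 0.09, adjusted p = 1.1e-05) and lowest at 40 h in both media (-0.77 ± 0.11 and -0.32 ± 0.10). Atp6v0a1, its widely expressed paralogue, was lower at 12 h (-0.34 ± 0.07 and -0.60 ± 0.07) and at 40 h in 2iLIF (-0.37 ± 0.07). In 2iSL it had come back to -0.19 ± 0.07 at 40 h, a value not called without replicate 1 of 0 h (-0.17) or replicate 2 of 40 h (-0.16). Compared per length (CPM per kilobase of the deposited gene length, RPKM), Atp6v0a1 in 2iLIF made up 58.7% ± 1.4 (SD, n = 2), 50.2% ± 0.61 and 65.3% ± 1.1 of the pair at 0, 12 and 40 h. In 2iSL the shares were 62.5% ± 1.3, 44.3% ± 1.2 and 64.6% ± 0.81, so Atp6v0a2 was the more abundant of the pair in both libraries at 12 h. An antisense gene overlaps 9.86% of the Atp6v0a2 exons. Of the e subunits, Atp6v0e supplied 93.8% ± 0.31 of the pair per length at 0 h in 2iLIF and 92.0% ± 0.97 in 2iSL. It dipped at 12 h (-0.59 ± 0.09 and -0.36 ± 0.08) and was not called at 40 h (0.09 ± 0.08 and 0.12 ± 0.08). The minor Atp6v0e2 was higher at 40 h in 2iLIF, from 9.13 and 8.66 CPM to 14.7 and 11.7 CPM (0.57 ± 0.18), a call lost without replicate 1 of 40 h (0.39), and read 0.03 ± 0.17 in 2iSL.

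Ragulator RNA differed little between 0 and 40 h in 2iLIF. Earlier, Lamtor1 was called lower at 12 and 24 h and Lamtor5 at 12 h. These calls were lost without single libraries (Lamtor1 at -0.20 to -0.13 and at -0.17, Lamtor5 at -0.32). At 40 h in 2iLIF 0 of its 5 genes were called by edgeR, against 68.8% of all genes. An unadjusted p under 0.05 was found for 0, and DESeq2 called 0, with log2 changes between -0.19 (Lamtor5) and 0.20 (Lamtor3). In 2iSL, where 70.5% of all genes were called, Lamtor3 was higher, from 14.4 and 15.1 CPM to 23.8 and 23.1 CPM (0.67 ± 0.13). Lamtor2 (-0.37 ± 0.08) and Lamtor5 (-0.42 ± 0.10) were lower there. Lamtor2 and Lamtor3 form one of the roadblock pairs that bind the Rag proteins, and Lamtor4 pairs with Lamtor5. Lamtor1 is the lipid-anchored scaffold that wraps the others. It read 0.00 ± 0.07 in 2iSL and -0.06 ± 0.07 in 2iLIF. Lamtor4, between 23.3 and 29.8 CPM in all 16 libraries, was the only one of the 39 genes not called in any exit comparison. Processed pseudogenes at 96.1 to 99.5% identity match 25.9 to 43.4% of the Lamtor1, Lamtor3 and Lamtor5 transcripts, so these 3 are uncertain. Lrrc51, on the other strand, also overlaps 18.7% of the Lamtor1 exons.

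Among the Rag GTPases, RagB showed the strongest rise of the 39 genes at 40 h. Its RNA (Rragb, X:153137644-153190192 in GRCm38) read 27.7 and 28.6 CPM at 0 h in 2iLIF, then 35.9 and 34.6, 59.1 and 59.7, and 81.4 and 85.5 CPM. In 2iSL it began lower, at 17.5 and 14.5 CPM, and read 29.9 and 33.2, 48.9 and 43.7, then 68.0 and 69.3 CPM. Libraries of successive times did not overlap in either medium. The 40 h changes were 1.56 ± 0.09 (adjusted p = 1.1e-33) and 2.10 ± 0.10 (adjusted p = 2.4e-41), that is 2.96-fold and 4.28-fold. RagA, its close paralogue (Rraga), stayed between 90.2 and 116 CPM in all 16 libraries and was not called from 0 to 40 h in either medium (0.04 ± 0.06 and -0.05 ± 0.06). Per length, Rraga supplied most of the pair throughout, but the share of Rragb rose from 16.1% ± 0.56 (SD, n = 2) at 0 h to 20.2% ± 0.21, 28.8% ± 0.64 and 35.7% ± 0.42 in 2iLIF. In 2iSL it went from 9.50% ± 0.18 to 16.4% ± 1.1, 26.0% ± 0.61 and 31.8% ± 0.12.

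**Figure D3:**
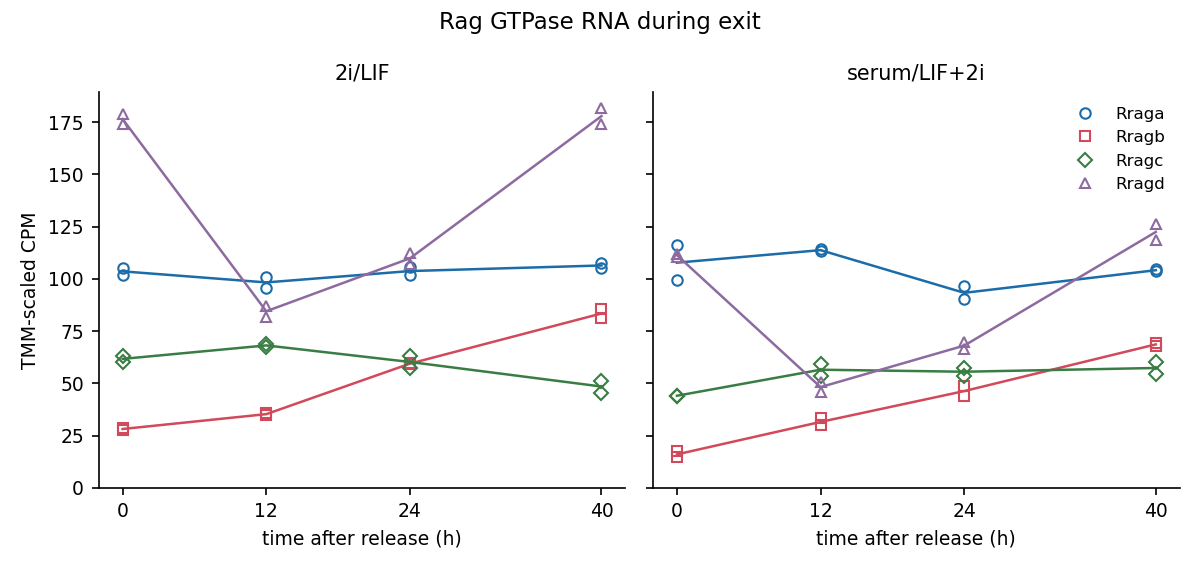
Level of the 4 Rag GTPases in TMM-scaled CPM by time after release in each medium (points are single libraries, lines join the means of 2). Rragb climbs at each step from under 30 to above 65 CPM, Rraga stays level, and Rragd falls at 12 h and returns by 40 h.

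RagD had a different course from RagC. Rragd in 2iLIF read 174 and 179, 82.0 and 87.0, 107 and 113, then 182 and 174 CPM at 0, 12, 24 and 40 h. In 2iSL it read 111 and 112, 46.0 and 50.5, 69.9 and 66.2, then 126 and 119 CPM. All 4 libraries at 12 h thus lay below those of their medium at 0 h (-1.06 ± 0.06 and -1.20 ± 0.07) and those at 40 h were close to or above the 0 h values (0.01 ± 0.05 and 0.14 ± 0.05). The small excess in 2iSL was not called without replicate 1 of 0 h (0.13), replicate 2 of 0 h (0.15) or replicate 1 of 40 h (0.10). Rragc fell in 2iLIF, from 63.2 and 60.2 CPM to 45.6 and 51.4 CPM (-0.35 ± 0.08), and rose in 2iSL, from 44.1 and 44.1 CPM to 60.3 and 54.4 CPM (0.38 ± 0.08). A gene on the other strand overlaps 7.90% of the Rragc exons, and whether reads were counted by strand is not given in the sources used here. Per length, Rragd in 2iLIF supplied 59.6% ± 1.3, 39.02% ± 1.3 and 65.5% ± 2.6 of the RagC and RagD pair at 0, 12 and 40 h. The shares in 2iSL were 56.6% ± 0.23, 30.6% ± 0.12 and 52.5% ± 0.76.

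The change after 12 h, in either direction, was tested directly in 2 comparisons of 40 h with 12 h, chosen after the values were seen. In 2iLIF 22 of the 39 genes were called (62.5% of all genes) and in 2iSL 29 (66%), with 18 called in both. The 18 include genes that went on falling or rising, such as Mitf, Tfeb and Tfe3. The splits were 9 higher and 13 lower, then 16 higher and 13 lower. Of the 14288 genes, 4477 were higher and 4446 lower in 2iLIF, and 4778 and 4649 in 2iSL. With library size alone the splits were 15 and 11, then 20 and 7. That scaling called 4945 of all genes higher and 4003 lower in 2iLIF, and 5499 and 3866 in 2iSL. Rragd rose by 1.07 ± 0.06 and 1.34 ± 0.06 on the log2 scale from 12 to 40 h. Slc38a9 rose by 0.82 ± 0.18 and 1.39 ± 0.16, and Atp6v0e by 0.68 ± 0.08 and 0.48 ± 0.08. Atp6v0b gave 0.28 ± 0.08 and 0.65 ± 0.07. Atp6v0a2 changed the other way, by -0.93 ± 0.10 and -0.79 ± 0.09.

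Within mTORC1 the genes differed. Of the 7 genes of mTORC1, TSC and Slc38a9, 1 rose and 3 fell in 2iLIF at 40 h, and 2 rose and 1 fell in 2iSL. Scaling by library size alone gave 5 and 1 in 2iSL, where it called 5635 of the 14288 genes higher and 4386 lower. With the main scaling the share called was 57.1% and 42.9%, against 68.8% and 70.5% of all genes. Mtor, the kinase, lay between 122 and 147 CPM in all 16 libraries and changed by 0.07 ± 0.06 and 0.10 ± 0.05 at 40 h, neither called. Rptor, the scaffold that recruits substrates, lay between 87.5 and 111 CPM, with -0.11 ± 0.06 and 0.10 ± 0.06 at 40 h, neither called. Mlst8, a subunit shared by both mTOR complexes, fell from 46.2 and 46.2 CPM to 22.4 and 27.2 CPM in 2iLIF (-0.90 ± 0.10) and from 36.6 and 33.9 CPM to 24.4 and 23.7 CPM in 2iSL (-0.55 ± 0.10). Bricd5, on the other strand, overlaps 22.5% of the Mlst8 exons. Rheb, the GTPase that switches mTORC1 on, rose from 81.9 and 77.8 CPM to 102 and 112 CPM (0.42 ± 0.06) and from 78.5 and 77.1 CPM to 88.5 and 94.2 CPM (0.23 ± 0.06).

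The exit change of Tsc1 differed between the media (interaction 0.50 ± 0.10). Tsc1, the stabilising partner, fell in 2iLIF from 71.9 and 77.0 CPM to 57.1 and 54.5 CPM (-0.42 ± 0.08). In 2iSL it dipped to 52.4 and 50.6 CPM at 12 h (-0.35 ± 0.08) and was back at 65.4 and 73.8 CPM at 40 h (0.08 ± 0.07, not called). Tsc2, the subunit that acts on Rheb, changed by -0.26 ± 0.05 in 2iLIF and -0.07 ± 0.05 (not called) in 2iSL. The difference between media for Tsc2 was 0.19 and was not called on leaving out replicate 1 of 0 h, replicate 1 of 40 h or replicate 2 of 40 h in 2iLIF, or replicate 2 of 0 h or replicate 1 of 40 h in 2iSL (0.16 to 0.20). Exons of Pkd1 on the other strand overlap 7.20% of the Tsc2 exons. Slc38a9, the lysosomal arginine sensor, was scarce. In 2iLIF it had 10.9 and 12.0, 6.58 and 8.42, 8.75 and 11.4, then 11.5 and 15.2 CPM (40 h change 0.22 ± 0.17 against 0 h, not called). In 2iSL it had 10.6 and 8.81, 7.03 and 6.60, 11.3 and 12.5, then 17.8 and 18.0 CPM (0.88 ± 0.15, adjusted p = 2.1e-07).

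The MiT/TFE factors moved apart. Tfe3 (X:7762530-7775202 in GRCm38) rose from 118 and 110.1 CPM at 0 h in 2iLIF to 157 and 151, 201 and 194, and 203 and 196 CPM. In 2iSL it went from 116 and 118 CPM to 129 and 136, 214 and 207, and 232 and 232 CPM. Every library after release lay above the 4 naive ones, and the 40 h changes were 0.81 ± 0.05 (adjusted p = 1.8e-29) and 0.98 ± 0.05 (adjusted p = 5e-39). The 12 h rise in 2iSL was small (0.18 ± 0.05) and not called without replicate 2 of that group (0.14).

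Mitf (6:97807002-98021360) fell the most of the 39 genes. Its 2iLIF libraries read 78.2 and 73.8, 15.3 and 12.7, 2.08 and 4.41, then 2.13 and 1.09 CPM over the 4 times. In 2iSL it read 81.5 and 87.5, 17.2 and 13.9, 3.10 and 2.65, then 3.02 and 2.42 CPM. The log2 changes were -2.44 ± 0.11 and -2.46 ± 0.10 at 12 h and -5.53 ± 0.17 and -4.94 ± 0.14 at 40 h, with the lowest library at 8 reads. Tfeb (17:47737037-47792416) fell in the same libraries, from 44.5 and 46.8 CPM to 14.7 and 20.7, 10.97 and 6.53, and 7.89 and 6.52 CPM in 2iLIF. In 2iSL it fell from 32.6 and 32.3 CPM to 12.2 and 11.7, 5.53 and 6.22, and 6.12 and 6.29 CPM. Its changes at 40 h were -2.66 ± 0.14 and -2.39 ± 0.14.

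**Figure D4:**
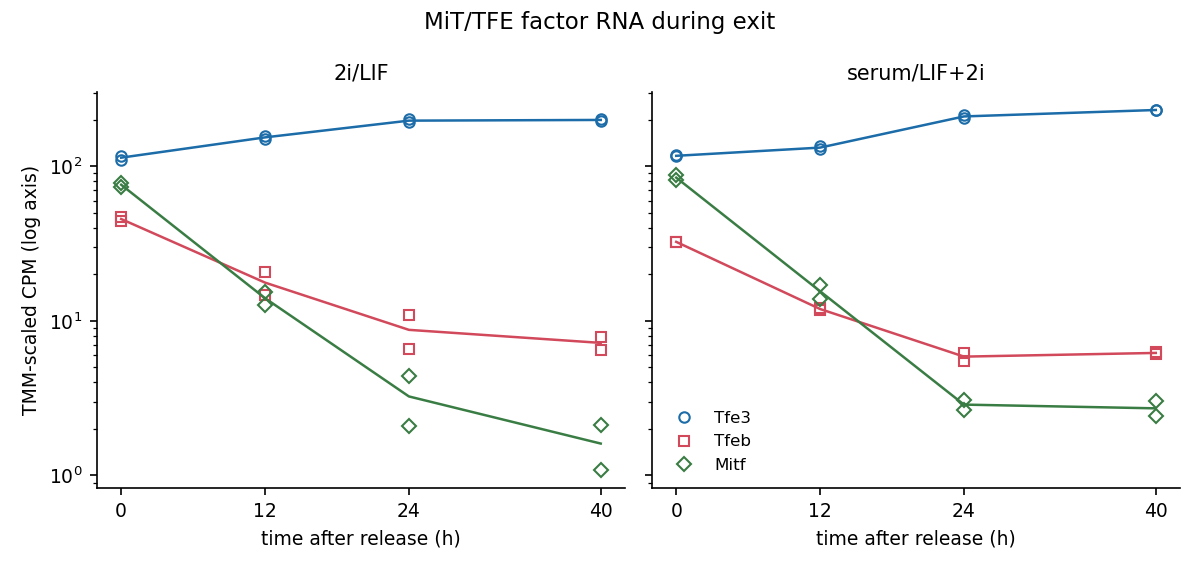
Level of Tfe3, Tfeb and Mitf in TMM-scaled CPM on a log axis by time after release in each medium (points are single libraries, lines join the means of 2). Tfe3 climbs from 110.1 to 118 CPM to between 196 and 232 CPM, while Mitf drops from above 70 to between 1.09 and 3.02 CPM.

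Per length, Tfe3 was already the most abundant of the 3 in naive cells and became nearly the sole one. Its share in 2iLIF went from 53.0% ± 1.1 (SD, n = 2) in naive cells to 84.0% ± 2.1, 94.2% ± 1.0 and 95.5% ± 0.62 at 12, 24 and 40 h. In 2iSL the shares were 56.2% ± 0.47, 84.8% ± 1.4, 96.1% ± 0.24 and 96.3% ± 0.051. The summed RPKM of the 3 at 0, 12 and 40 h was 65.6 ± 1.6, 56.0 ± 0.17 and 63.8 ± 2.0 in 2iLIF, and 63.5 ± 1.0, 47.6 ± 0.87 and 73.5 ± 0.036 in 2iSL. The total was therefore lowest at 12 h, when Mitf and Tfeb had fallen and Tfe3 was below its 40 h level.

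Folliculin and its partners split by medium. Flcn (11:59791408-59810039) in 2iLIF read 77.2 and 73.7, 78.7 and 79.0, 56.8 and 59.1, then 40.0 and 46.1 CPM (-0.81 ± 0.08, adjusted p = 5.4e-17). In 2iSL it read 49.4 and 49.9, 61.5 and 59.6, 52.3 and 54.8, then 53.4 and 48.5 CPM (0.04 ± 0.08, adjusted p = 0.65). Fnip1 fell in both media, from 89.6 and 96.9 CPM to 41.8 and 42.1 CPM (-1.15 ± 0.08) and from 75.4 and 80.2 CPM to 56.8 and 58.3 CPM (-0.44 ± 0.07), and was lowest in 2iSL at 12 h, at 38.4 and 38.1 CPM. Fnip2 fell in 2iLIF, from 87.7 and 92.7 CPM to 64.9 and 61.3 CPM (-0.52 ± 0.07), and was higher in 2iSL, from 56.0 and 61.0 CPM to 67.5 and 68.4 CPM (0.22 ± 0.07, not called without replicate 1 of 0 h, at 0.15). Per length, Fnip1 was the larger of the pair in naive cells (53.9% ± 0.41 and 60.1% ± 0.39) and the smaller at 24 h (36.6% ± 1.2 and 40.5% ± 0.25).

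The neighbouring parts of the pathway were read from lists of 73 genes, of which 66 were tested. In 2iLIF 49 of the 66 were called at 40 h (14 higher, 35 lower), and in 2iSL 48 (18 higher, 30 lower), against 68.8% and 70.5% of all genes. Among known targets of TFEB and TFE3, mostly lysosomal hydrolases, 18 of 22 fell (34.7% of all genes) and 0 rose (34.1%) in 2iLIF. The median log2 change of these targets was -1.16. None had an unadjusted p under 0.05 in the upward direction (0 of 22), and DESeq2 called 0 higher and 16 lower. Of the 21343 genes in its fit, DESeq2 called 4348 higher and 4260 lower in 2iLIF. In 2iSL 15 fell (35.3% of all genes) and 5 rose (35.3%), with a median of -0.76. Among those that rose, chosen here after their values were seen, were Sqstm1 (0.41 ± 0.04), Ctsf (0.54 ± 0.14), Uvrag (0.31 ± 0.10) and Mcoln1 (0.29 ± 0.10). Ctsa, the lysosomal protective protein, read 286 and 283 CPM at 0 h and 49.8 and 56.7 CPM at 40 h in 2iLIF (-2.42 ± 0.06), and changed by -1.93 ± 0.06 in 2iSL. Ctsb, cathepsin B, changed by -2.18 ± 0.05 and -1.77 ± 0.05. Esrrb, the naive factor that this list shares with the pluripotency markers, went from 912 and 919 CPM to 39.6 and 35.2 CPM (-4.61 ± 0.05) and from 915 and 904 CPM to 15.4 and 15.7 CPM (-5.87 ± 0.05). The RNA of Tfe3 was thus higher, and that of Tfeb, Mitf and most listed targets lower, in the same libraries. A link between factors and targets was not tested.

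Of 11 other V-ATPase isoforms and assembly factors tested, 8 fell and 1 rose in 2iLIF, and 6 fell and 1 rose in 2iSL. The share called was 81.8% and 63.6%, against 68.8% and 70.5% of all genes. Dmxl1, which takes part in assembling the pump, changed by -0.91 ± 0.05 and -0.50 ± 0.05, whereas its relative Dmxl2 rose by 0.44 ± 0.12 and 0.95 ± 0.10. The 2iLIF call for Dmxl2 was lost without replicate 2 of 40 h (0.28). The a4 isoform Atp6v0a4, known from kidney, had 17 and 20 reads at 0 h in 2iLIF and 48 and 52 in 2iSL, and at most 4 reads in any library after release. Of 7 mTORC1 substrates, 3 rose and 2 fell in 2iLIF, and 3 rose and 3 fell in 2iSL. That is 71.4% and 85.7% called, the first near the 68.8% of all genes and the second above their 70.5%. Ulk1, the kinase that starts autophagy, fell from 397 and 387 CPM to 54.2 and 53.8 CPM in 2iLIF (-2.86 ± 0.05) and changed by -3.15 ± 0.05 in 2iSL. Lpin1 changed by -1.25 ± 0.07 and -0.89 ± 0.07, and Eif4ebp1, the translation repressor, by 0.55 ± 0.04 and 0.27 ± 0.04. Grb10, an adaptor of growth factor receptors named here after its values were seen, rose by 2.40 ± 0.08 and 2.95 ± 0.07.

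Among 6 amino acid sensors, 2 rose and 1 fell in 2iLIF and 3 rose and 1 fell in 2iSL. The share called, 50% and 66.7%, was below the 68.8% and 70.5% of all genes. Castor2, from the family of cytosolic arginine sensors, went from 4.998 and 5.62 CPM to 32.3 and 30.4 CPM (2.56 ± 0.17) and from 4.85 and 6.61 CPM to 38.0 and 35.4 CPM (2.68 ± 0.15). The leucine sensor Sesn2 changed by 0.63 ± 0.05 and 1.11 ± 0.05, and Sesn3 by 0.24 ± 0.11 (not called) and 0.70 ± 0.11. Of the 3 subunits of GATOR1, the GTPase-activating complex for RagA and RagB, Nprl2 was the only one called (-0.61 ± 0.15 and -0.87 ± 0.13), with Depdc5 at -0.10 ± 0.07 and 0.11 ± 0.06. Of the 5 GATOR2 subunits, which restrain GATOR1, 3 rose and 1 fell in 2iLIF and 2 rose and 2 fell in 2iSL. The share of GATOR2 genes called was 80% in both media, against the same background. Seh1l gave 0.58 ± 0.04 and 0.46 ± 0.04 and Mios 0.42 ± 0.09 and 0.61 ± 0.08. Of 3 KICSTOR genes, 1 rose and 1 fell, then 1 rose and 0 fell (66.7% and 33.3% called). Of 9 other mTOR complex genes, 4 rose and 3 fell, then 3 rose and 2 fell, among them (77.8% and 55.6% called, with 68.8% and 70.5% of all genes) Rictor, which defines mTORC2, at -0.56 ± 0.06 and -0.39 ± 0.06.

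The starting medium was compared at 0 h. In naive cells 19 of the 39 genes differed, where 33% of all genes did. In 2iSL 2 were higher (14.6% of all genes were) and 17 lower (18.4%). Rragb (-0.81 ± 0.13), Rragd (-0.67 ± 0.06), Fnip2 (-0.63 ± 0.07), Flcn (-0.60 ± 0.08), Tfeb (-0.49 ± 0.11), Rragc (-0.48 ± 0.09), Atp6ap2 (-0.40 ± 0.06) and Mlst8 (-0.39 ± 0.10) were lower in 2iSL. For each of these 8 the 2iSL libraries lay below those of 2iLIF, as in Flcn at 49.4 and 49.9 against 77.2 and 73.7 CPM. Tfe3 (0.04 ± 0.06) and Mtor (0.00 ± 0.06) did not pass the test. Lower in 2iSL were 3 of the 4 Rag genes, 4 of the 6 genes of the folliculin and TFE group and 6 of the 17 V-ATPase genes. The V-ATPase count rested on single libraries. Without replicate 1 of 2iLIF the calls of Atp6v0a2 (-0.21), Atp6v1a (-0.10) and Atp6ap1 (-0.15) were lost. Without replicate 2 of 2iLIF those of Atp6v0a2 (-0.32), Atp6v1f (-0.19) and Atp6ap1 (-0.20) were lost. Libraries of 2iSL mattered too: the call of Atp6v0a2 was lost without either replicate, that of Atp6ap1 without replicate 1 and that of Atp6v1f without replicate 2. In the folliculin and TFE group, Fnip1 was at -0.26 ± 0.07, and at -0.21 and not called without replicate 2 of 2iLIF.

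At 40 h more of the called genes were higher than lower in 2iSL. Of the 39 genes 16 were called (27.3% of all genes), 11 higher (13.9%) and 5 lower (13.4%) in 2iSL. Only 10 were called without replicate 1 of 40 h in 2iLIF (7 higher, 3 lower), and 10 without replicate 1 of 40 h in 2iSL (6 higher, 4 lower). Fnip1 (0.45 ± 0.08), Tsc1 (0.31 ± 0.07), Atp6v0d1 (0.26 ± 0.06), Tsc2 (0.22 ± 0.05) and Tfe3 (0.21 ± 0.04) were higher. Rragd (-0.54 ± 0.05) and Rragb (-0.28 ± 0.07) were still lower. Flcn (0.25 ± 0.08) and Rragc (0.25 ± 0.08) were called higher with all libraries, but not without replicate 1 of 40 h in 2iLIF (0.15 and 0.16) or in 2iSL (0.17 and 0.17).

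**Figure D5:**
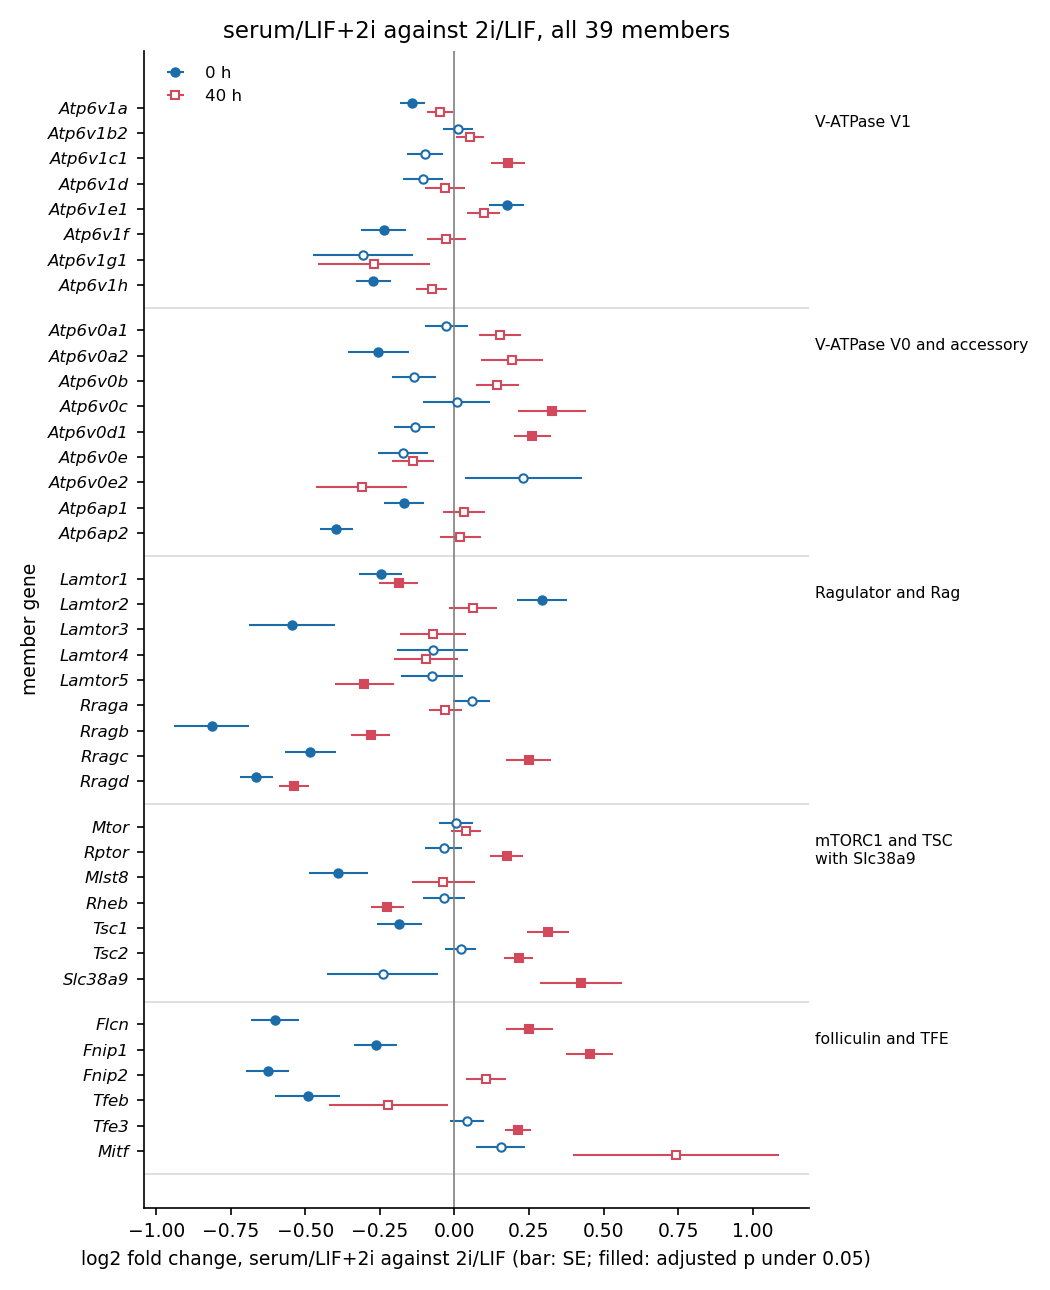
Log2 difference of 2iSL from 2iLIF for all 39 genes at 0 h (circles) and 40 h (squares), with standard errors, filled where the adjusted p was under 0.05. In naive cells most filled circles lie left of 0, and at 40 h Flcn, Fnip1, Rragc and Tsc1 lie right of it.

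The difference between the exit changes of the media was tested as an interaction (the 40 h change in 2iSL minus that in 2iLIF). It was called for 15 of the 39 genes, where 27.6% of all genes were called. All 15 were positive (14.8% of all genes were called positive and 12.8% negative), and 0 were negative, with 3 negative at an unadjusted p under 0.05. DESeq2 called 8, also with 0 negative. Of the 21343 genes in its fit, it called 1226 positive and 1046 negative. Leaving out replicate 1 of 40 h in 2iLIF gave 11 calls, 1 of them negative. The median of the 39 values was 0.20, against 0.02 for all genes. The folliculin group and the RagC gene led: Flcn at 0.85 ± 0.11 (adjusted p = 2.7e-10), Fnip2 at 0.73 ± 0.10 (adjusted p = 7.1e-10), Rragc at 0.73 ± 0.11 (adjusted p = 1e-07) and Fnip1 at 0.72 ± 0.11 (adjusted p = 2.1e-08). Tsc1 (0.50 ± 0.10), Atp6ap2 (0.42 ± 0.09) and Atp6v0d1 (0.39 ± 0.09) also differed. For Rragb the value was 0.53 ± 0.14, and 0.41 (adjusted p = 0.063) without replicate 2 of 0 h in 2iSL. The changes of Tfe3 (0.17 ± 0.07, adjusted p = 0.063), Tfeb (0.27 ± 0.23) and Mitf (0.59 ± 0.36) were not shown to differ between the media. The interaction shares its 0 h libraries with the comparison of naive cells, and a lower 2iSL value at 0 h enters it with a positive sign. Of the 15 called genes, 14 were lower in 2iSL at 0 h by value, and 9 were called lower there. At 40 h 9 of the 15 were called higher in 2iSL. The shared sign of the 15 is thus not independent of the 0 h result.

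The promoters of the genes were searched for the E-box CACGTG, which is palindromic and so reads the same on both strands and is the core of the element that TFEB and TFE3 bind at lysosomal genes, and for the longer TCACGTG on either strand, which contains it. Windows of 300 bases (250 before the transcript start and 50 from it on, RefSeq, GRCm38.p6) were at hand for 33 of the 39 genes. Of these, 10 (30.3%) held CACGTG, against 8.09% of the 27025 genes with such a window, and the same 10 held the longer form, against 4.29%. That background includes genes that failed the filter on low counts, which all 39 passed. The share among the 14288 tested genes was not taken. This is a description of letters in these windows, and no binding was measured. Rragb, the gene with the strongest rise, was the only one with 3. They are shown in capitals in the stretch from 20 bases before the first to the 20th base of the transcript (X:153139811-153139977, plus strand). This stretch lies inside the Rragb gene span given above, which begins at X:153137644, so its window belongs to an internal transcript start. The bases around X:153137644 itself were not searched.
Rragb: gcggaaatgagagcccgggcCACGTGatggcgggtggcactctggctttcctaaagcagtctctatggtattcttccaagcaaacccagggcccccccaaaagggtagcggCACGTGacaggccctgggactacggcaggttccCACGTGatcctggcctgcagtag

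The other E-boxes are shown with 12 bases on each side, again in capitals, to allow the motif's neighbours to be compared between genes that rose and genes that fell. Those of Atp6v1a (16:44139373-44139402), Atp6v0d1 (8:105566050-105566079), Rheb (5:24842440-24842469) and Atp6v0b (4:117887348-117887377 and 4:117887330-117887359) are on the minus strand. Those of Fnip1 (11:54438092-54438121), Rragc (4:123917309-123917338), Atp6v0e (17:26676387-26676416), Lamtor1 (7:101905757-101905786) and Lamtor4 (5:138255350-138255379 and 5:138255366-138255395) are on the plus strand. The Atp6v1a window also belongs to an internal start, since the span of that gene begins, on the minus strand, at 16:44139702.
Atp6v1a: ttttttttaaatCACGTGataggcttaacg
Atp6v0b, first: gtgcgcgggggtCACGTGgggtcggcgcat
Atp6v0b, second: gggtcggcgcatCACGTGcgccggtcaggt
Atp6v0d1: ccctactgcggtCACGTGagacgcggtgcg
Atp6v0e: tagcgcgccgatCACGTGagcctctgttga
Lamtor1: ctgccttcctatCACGTGccgcgggtccgc
Lamtor4, first: gcagaaagttaaCACGTGaacagcttttca
Lamtor4, second: tgaacagcttttCACGTGtaaaccaaacca
Rragc: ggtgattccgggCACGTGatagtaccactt
Rheb: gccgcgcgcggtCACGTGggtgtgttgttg
Fnip1: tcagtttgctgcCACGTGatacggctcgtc

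Genes with the motif did not share a direction at 40 h. Rragb and Rheb rose in both media, Atp6v1a, Atp6v0b and Fnip1 fell in both, Rragc and Atp6v0d1 went opposite ways, and Atp6v0e, Lamtor1 and Lamtor4 were called in neither. The windows of Tfe3, Tfeb, Mitf, Flcn, Fnip2 and Rragd held no CACGTG, which says only that these letters are not in those windows.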

How the data were processed

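Per the labels' protocols, RNA came from a TRIzol extraction and a TruSeq stranded kit for mRNA. The submitters' processing notes name fastp, STAR, featureCounts and the build mm10; their versions, the annotation and the strand setting are not given in the sources used here. The authors deposited raw, whole-number counts per gene with a symbol and a gene length, per the file headers. Groups and replicates follow the sample titles, and 0 columns of values were set aside.

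Genes were kept with filterByExpr (minimum count 10, minimum total 15), which left 14288. All 16 libraries were fitted in one edgeR 4.0.16 quasi-likelihood model (TMM scaling, robust, a term per group, 8 residual degrees of freedom), with two-sided tests and Benjamini-Hochberg adjustment over all 14288 genes. Standard errors come from the F statistic. The procedure was tested on simulated data. RPKM, used only to compare genes, is CPM per kilobase of the deposited length. DESeq2 1.42.0, DESeq2 size factors, library size only, other filters, no ribosomal RNA genes, a replicate block and leaving out each library were the alternatives. Overlaps and near-identical transcripts (blastn 2.17.0, at least 95% identity over at least 100 bases and 10% of the transcript) were looked up in GENCODE annotation of GRCm38, the assembly of mm10.

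The 39 genes and the lists were chosen with earlier results of these data known. All 39 could be named; described in full were, per complex, up to 4 genes by adjusted p at 40 h, up to 2 by adjusted p at 0 h between media or in the interaction, and all paralogues, with up to 3 genes per pathway list. Kics2 and Samtor were not matched in the table. Depth limits low genes such as Mitf at 40 h, and standard errors cover counting error and the spread between libraries. One gene of the pathway lists is not reported here by name.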

Additional observations from a re-analysis of the deposited data

Results flagged for a closer look

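The change from 0 to 40 h differed between the media for 15 of the 39 genes by the interaction test of edgeR (log2, 2iSL minus 2iLIF). For 7 of them the call held under all 23 alternatives run: Flcn 0.85, Fnip2 0.73, Rragc 0.73, Fnip1 0.72, Tsc1 0.50, Atp6ap2 0.42 and Atp6v0d1 0.39. The value of Slc38a9 was 0.67, and 0.47 to 0.59 without replicate 2 of 0 h or replicate 1 of 40 h in 2iLIF or replicate 2 of 0 h in 2iSL, each then not called. Rragb was at 0.53, and at 0.41 without replicate 2 of 0 h in 2iSL. Atp6v0a2 was at 0.45, and at 0.39 to 0.41 without replicate 1 of 0 h or 40 h in 2iLIF or of 0 h in 2iSL. The calls of Lamtor3 (0.47, and 0.27 to 0.51 without 1 library), Atp6v0b (0.28), Rptor (0.21) and Tsc2 (0.19) were each lost on leaving out any of at least 5 single libraries, and that of Atp6v1c1 (0.28) under DESeq2. No cause was tested.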

How the results depend on the processing

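Of 302 called values of single genes, 227 kept their direction and call under all 23 alternatives, and 0 changed sign. DESeq2 lost 49 of the 302, library size only 17. For the counts of genes called, DESeq2 gave 8 in place of 16 in the medium comparison at 40 h and 8 in place of 15 in the interaction. Of all genes, DESeq2 called 2272 in the interaction and edgeR 3940. The cause of the lower counts was not tested. Leaving out single libraries gave 24 to 28, 24 to 27 and 24 to 26 genes at 12, 24 and 40 h in 2iLIF, 23 to 27, 26 to 29 and 26 to 29 in 2iSL, 13 to 19 and 10 to 16 in the medium comparisons at 0 and 40 h, and 11 to 15 in the interaction. Then a group with 1 library is assumed to vary like the others. No pairing of libraries by replicate number was detected. The 28 correlations between groups of the difference between replicates lay between -0.023 and 0.033. They cannot show that the libraries were unpaired, because counting error enters each difference. The fit with the replicate block called 28, 26 and 25 genes in 2iLIF, 27, 28 and 29 in 2iSL, 18 and 16 between media, and 16 in the interaction. With 1 gene lost it changed few calls (Tsc1 at 0 h between media, adjusted p = 0.052). Library size only moved the median of all genes by less than 0.1.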
